A study of Mus musculus with 6 samples.

Results

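The type I interferon response genes described here are 38 mouse genes chosen by symbol from knowledge of the pathway, of which 36 were listed among the 32285 genes of each library. Mx1 and Mx2 were not analysed here. No measured value of these libraries took part in the rule that chose them, but they were proposed with earlier results of these data known.

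Type I interferons bind a shared receptor (Ifnar1 with Ifnar2), whose kinases phosphorylate Stat2. It joins Irf9 in a complex that binds the interferon-stimulated response element, a DNA motif in the promoters of a large set of genes, many of which interfere with viral entry, RNA or protein synthesis. The same genes are induced at a low level without infection, and the receptor signal is known in tumors and in the stem cells and granulocytes of marrow and blood. Interferon gamma has another receptor, and many genes answer to both.

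The mice bore EMT6 tumors, grown from a mammary carcinoma line of BALB/c origin. The mice were labelled Cysltr1 KO, deficient for a receptor of cysteinyl leukotrienes, or WT, the control of strain BALB/c. The labels state neither age nor sex and neither the deletion nor the strain background of the Cysltr1 KO mice. The 6 single-cell RNA libraries, 1 for each label and tissue, were each made from 3 pooled mice and covered bone marrow enriched for hematopoietic progenitors, and spleen and tumor enriched for CD45, all magnetically. No genotype had a replicate library, so no test was made, and each interval given covers counting error only and not the spread between mice or libraries.

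Cysltr1 itself went against the labels in marrow and spleen. It was at 24.5 CPM (UMI counts of a gene per 1000000 UMIs) in the labelled-KO marrow library and 4.76 CPM in the labelled-WT one, at 33.1 CPM in labelled-KO and 6.95 CPM in labelled-WT spleen, and at 7.27 CPM in labelled-KO and 9.94 CPM in labelled-WT tumor. Whether the counted reads lie in the deleted part of the gene is not given in the sources used here, so the groups are called by their labels throughout and every direction below is between labels. The 6 libraries held 40377940 to 75873784 UMIs, and 4996 to 8300 cells were kept in each. Median UMIs per kept cell differed most in marrow, at 6286 in the labelled-KO and 12676 in the labelled-WT library. Between 46 and 128 barcodes were shared by any pair of libraries.

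Cells were clustered without the members and named from marker genes, so that each name means cells like that type. Clusters that markers did not name kept their number and made up 14.3% of labelled-KO and 17.2% of labelled-WT marrow cells, 1.08% and 1.28% of spleen cells in the same order of labels, and 27.9% of labelled-KO and 23.6% of labelled-WT tumor cells, not counting the pool described below. Tumor clusters 8, 12, 11, 6 and 5 were compared by number. Cluster 8 held markers of neutrophils and was led by Lcn2, Ccrl2, Hcar2 and Il1a, cluster 12 was led by Rsad2, Ly6c2, Saa3, Ms4a4c and Fcgr1, cluster 11 by H2-Aa, H2-Eb1, Cd74 and Cd14, and cluster 6 by Neat1, Abca1 and Pid1. Rsad2 is itself a member, so the high level of members in cluster 12 is a description of that cluster and not a finding about it. Tumor clusters that markers did not name and with Ptprc, which encodes CD45, below 50 CPM were pooled as Ptprc-low cells, by a limit set after seeing the data. Cthrc1 and Acta2 were among their leading genes in cluster 0, nuclear RNAs in cluster 3, Ube2c, Cdc20 and Krt8 in cluster 7, and Adm, Hspb1 and Krt8 in cluster 9. A complete CD45 selection would have removed these cells, yet they numbered 1493 in the labelled-KO and 3248 in the labelled-WT library.

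Several members are neighbours in the genome. In build GRCm38, Ifit2, Ifit3, Ifit3b and Ifit1 lie in that order on chromosome 19 between positions 34550694 and 34650009, all on the plus strand. Oas1a, Oas2 and Oas3 lie together on chromosome 5, as do Oasl1 and Oasl2. Rsad2 and Cmpk2 lie next to each other on chromosome 12 in opposite directions, and Parp9, Dtx3l and Parp14 lie on chromosome 16. Parp9 on the plus strand and Dtx3l on the minus strand overlap at their starts, from 35938470 to 35939151. Reads of Ifit3 and Ifit3b, of Oas1a and its copies, of Trim30a and its copies and of Ifi204 and its family can fall on near-identical sequence, so the split of counts within each of these families is uncertain.

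Of the members, 27 had a promoter in the RefSeq table of build GRCm38.p6, as windows of 300 bases that run from 250 bases before to 50 bases after an annotated start. The core of the response element, GAAANNGAAA on either strand, was in a window of 15 of these 27 members (55.6%), against 1079 of all 27025 genes with a promoter (3.99%). With 1 mismatch allowed in either of its GAAA ends it was in 25 of the members (92.6%), against 10508 of all genes (38.9%). The 15 were Isg15, Oas1a, Ifit1, Ifit3, Ifit3b, Ddx60, Ifitm3, Bst2, Stat2, Slfn5, Trim30a, Ifih1, Oas3, Rsad2 and Ddx58. The exact letters were not in the windows of Oasl2, Xaf1, Herc6, Ifi44, Irf7, Cmpk2, Dtx3l, Ifit2, Irf9, Samd9l, Isg20 and Oasl1. A match is a description and not a binding site, and no match says only that these letters are not in the window. The 4 windows below belong to the members with a match that were most often called higher in the comparisons that follow (Slfn5 tied with Trim30a and was taken by alphabet). They are from RefSeq, GRCm38.p6, written 5′ to 3′ along the gene's own strand, with each match to the motif in capitals. The match nearest to the start begins 66 bases before it in Isg15 (chr4:156200769-156201068, minus strand), which has 3 matches, and 14 bases before it in Oas1a (chr5:120907476-120907775, minus strand), which has 2. It begins 222 bases before the start in Stat2 (chr10:128270248-128270547, plus strand), where it lies on the opposite strand, and 155 bases before it in Slfn5 (chr11:82951852-82952151, plus strand).
Isg15: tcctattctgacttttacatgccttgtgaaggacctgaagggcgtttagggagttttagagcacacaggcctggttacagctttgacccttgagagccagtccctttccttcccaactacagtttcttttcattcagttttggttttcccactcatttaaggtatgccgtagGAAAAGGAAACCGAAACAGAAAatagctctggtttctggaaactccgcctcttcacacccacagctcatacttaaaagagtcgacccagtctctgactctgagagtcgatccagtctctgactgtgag
Oas1a: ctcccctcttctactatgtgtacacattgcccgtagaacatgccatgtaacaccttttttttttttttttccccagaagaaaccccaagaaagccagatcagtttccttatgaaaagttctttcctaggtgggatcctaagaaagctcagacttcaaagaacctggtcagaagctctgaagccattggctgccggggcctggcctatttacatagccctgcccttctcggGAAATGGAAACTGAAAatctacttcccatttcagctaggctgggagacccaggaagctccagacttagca
Stat2: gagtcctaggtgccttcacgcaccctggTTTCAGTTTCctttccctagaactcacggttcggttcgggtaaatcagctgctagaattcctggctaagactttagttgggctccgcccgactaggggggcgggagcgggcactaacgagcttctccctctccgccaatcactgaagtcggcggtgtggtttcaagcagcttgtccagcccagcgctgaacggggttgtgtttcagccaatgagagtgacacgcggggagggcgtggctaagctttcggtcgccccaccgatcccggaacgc
Slfn5: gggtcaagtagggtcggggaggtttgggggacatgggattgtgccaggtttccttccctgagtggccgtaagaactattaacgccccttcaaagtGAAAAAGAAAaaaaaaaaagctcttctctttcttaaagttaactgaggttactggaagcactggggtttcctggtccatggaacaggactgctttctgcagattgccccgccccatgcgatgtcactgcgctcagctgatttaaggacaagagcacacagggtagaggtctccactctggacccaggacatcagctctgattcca

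The level of the members without interferon treatment was read in the libraries labelled WT, in 36 cell classes or clusters of at least 50 cells. Each level is the class's summed UMIs of a gene as CPM of that class. A UMI counts 1 captured molecule at 1 end of a transcript, so levels are not divided by transcript length. The 33 listed members other than Bst2, Ifitm3 and Ifi27l2a are called the core below. Those 3 were set apart because they are high in many resting cells.

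Summed core levels in the libraries labelled WT ran from 154 CPM (95% interval 143 to 165) in marrow cluster 1, led by Elane, S100a9 and Ngp, to 15491 CPM (15275 to 15709) in tumor cluster 12. Neutrophils were the highest of the marker-named classes in each tissue, and their level differed between tissues: 1372 CPM (1287 to 1462) in marrow, 3871 CPM (3822 to 3920) in spleen and 7308 CPM (7173 to 7444) in tumor. Immature neutrophils stood much lower, at 237 CPM in marrow and 455 CPM in spleen. Monocytes held 430.3 CPM in marrow and 1945 CPM in spleen, and tumor macrophages 1792 CPM (1762 to 1823). T cells held 829.8 CPM in spleen and 2135 CPM in tumor, and natural killer cells 703 CPM in spleen and 1834 CPM in tumor. For neutrophils, immature neutrophils, monocytes, T cells and natural killer cells, the intervals of the tissues did not overlap. Tumor was the highest for neutrophils, T cells and natural killer cells. Tumor macrophages, in contrast, lay below spleen monocytes (1864 to 2029). In marrow, stem and multipotent progenitors held 560.1 CPM (537 to 584), granulocyte-monocyte progenitors 172 CPM (167 to 177), erythroid cells 412 CPM, basophils or mast cells 275 CPM and megakaryocytes 233 CPM. The stem and multipotent class thus lay above the more committed myeloid progenitors beyond counting error. Other spleen classes lay between, with 1187 CPM in conventional dendritic cells of type 2, 917 CPM in those of type 1, 659 CPM in B cells and 383 CPM in plasma cells. In tumor, the carcinoma class held 857 CPM (825 to 890) and Ptprc-low cells 734 CPM (726 to 742).

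**Figure D1:**
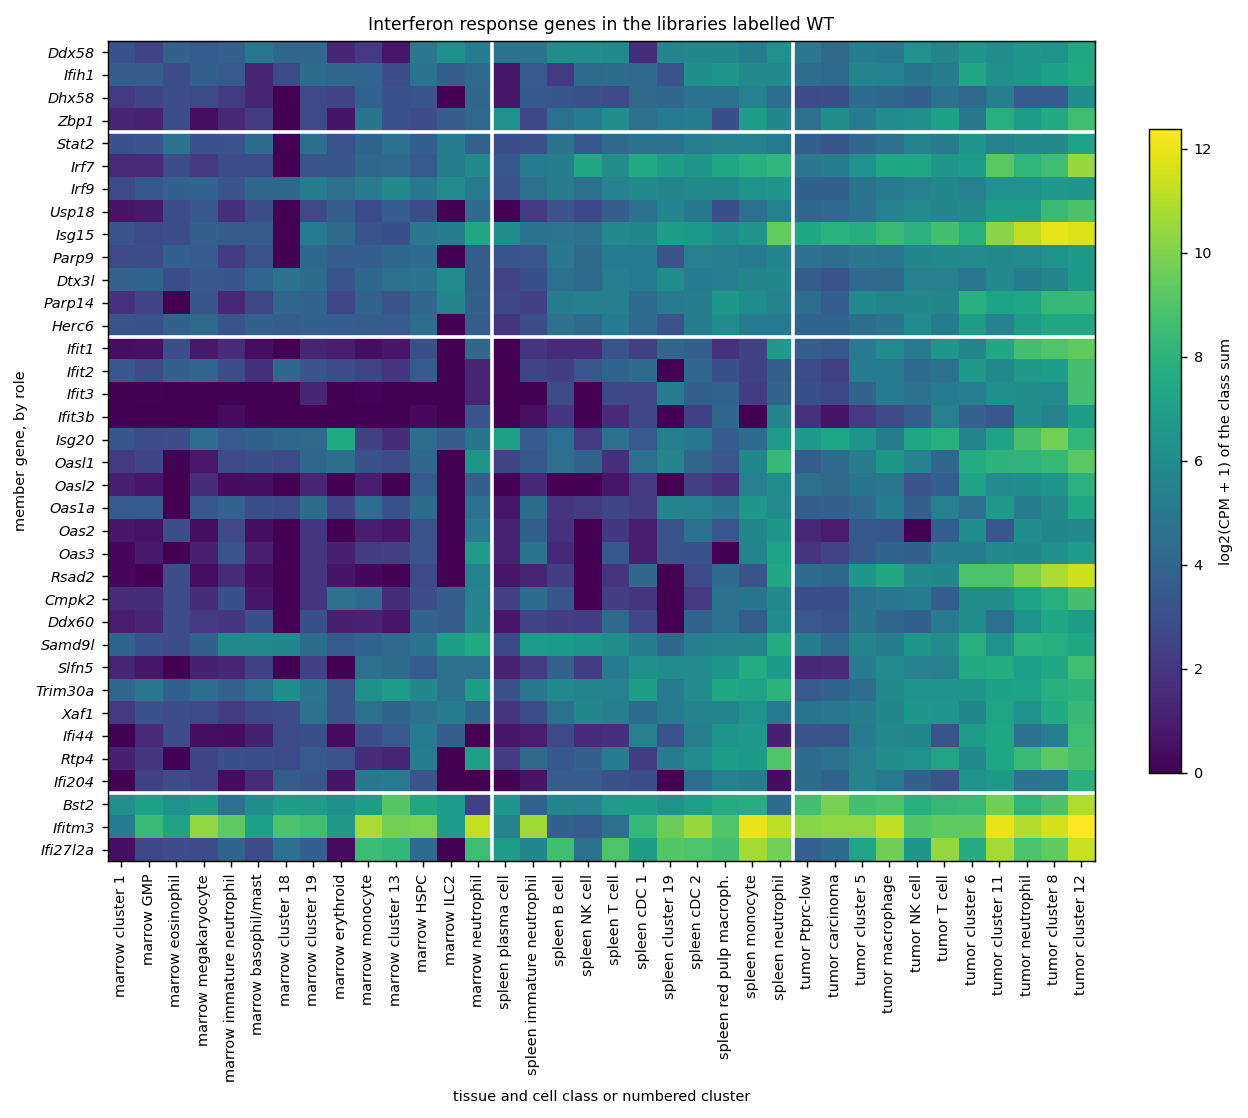
Level of each of the 36 listed members (rows, ordered by role) in each cell class or cluster of the libraries labelled WT (columns, ordered within a tissue), as log2 of CPM plus 1 of summed UMIs. Most members are dark in most marrow columns, while Ifitm3 is bright in many of them, and tumor neutrophils and tumor clusters 8 and 12 are the brightest, with Isg15 at 2359, 3866 and 3315 CPM there.

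The sensors of foreign nucleic acid were low in most classes. Ddx58 and Ifih1, helicases that bind viral RNA and start interferon production, ranged over the 36 labelled-WT classes from 0.707 to 163 CPM and from 0.679 to 185 CPM, with the highest values in cluster 12. Dhx58, a related helicase that tunes both, ranged from 0 to 67.0 CPM and Zbp1, a sensor of left-handed nucleic acid that can start cell death, from 0 to 369.6 CPM. Their median levels over the 36 classes were 33.8 CPM for Ddx58, 18.4 CPM for Ifih1, 9.34 CPM for Dhx58 and 25.9 CPM for Zbp1.

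Among the transducers and regulators, the range in CPM was widest for Isg15. Isg15, a ubiquitin-like modifier, was at 0 CPM in marrow cluster 18, a cluster of shallow cells, and at 3866 CPM in tumor cluster 8, with 8.18 CPM in marrow monocytes, 677 CPM in spleen neutrophils and 2359 CPM in tumor neutrophils. Irf7, the factor that drives most interferon alpha genes, reached 1434 CPM in cluster 12 and 284 CPM in spleen neutrophils. Stat2 and Irf9, which act in 1 complex, moved over a narrower range, with highest values of 142 and 102 CPM, and Irf9 was nowhere below 5.93 CPM. Usp18, which removes Isg15 from proteins and blocks the receptor, reached 457 CPM in cluster 12. Herc6, the mouse ligase for Isg15, reached 169 CPM in cluster 8. Parp9, its partner Dtx3l and Parp14, which write or read ADP-ribose on proteins, reached 105, 108 and 307 CPM, all in cluster 12.

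Among the antiviral effectors, the Ifit genes, whose proteins bind foreign or uncapped RNA, differed in the marrow. Ifit3 was at no more than 1.44 CPM in any labelled-WT marrow class and Ifit3b reached 8.62 CPM in neutrophils, while Ifit2 held up to 17.4 CPM. Ifit3 had no UMI in 13 and Ifit3b in 15 of the 36 labelled-WT classes, against 3 each for Ifit1 and Ifit2. Their highest values, in cluster 12, were 662 CPM for Ifit1, 422 CPM for Ifit2, 407 CPM for Ifit3 and 121 CPM for Ifit3b. Oas1a, Oas2 and Oas3 make the oligoadenylates that activate RNase L. Oas1a peaked at 153 CPM in cluster 12, whereas Oas2 at 91.2 CPM and Oas3 at 140.3 CPM peaked in spleen neutrophils. The related Oasl1, which limits translation of Irf7 in the mouse, reached 585 CPM in cluster 12 and 317 CPM in spleen neutrophils, and Oasl2 reached 245 CPM in cluster 12 with no UMI in 9 classes.

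Rsad2, an enzyme that makes a chain-terminating nucleotide, ranged from 0 to 2844 CPM in cluster 12 and held 1024 CPM in tumor neutrophils, while its neighbour Cmpk2, a nucleotide kinase, reached 428 CPM. Isg20, an exonuclease, was a different case. It reached 864 CPM in cluster 8 and 438 CPM in tumor neutrophils, and it was the highest of all 36 members in erythroid cells at 184 CPM and in plasma cells at 132 CPM. Samd9l, a restriction factor that acts on translation, and Trim30a, a Trim family protein, were present in every class, at no less than 5.43 and 7.47 CPM in any class and at most at 236 CPM in tumor neutrophils and 259 CPM in spleen neutrophils. Slfn5, of the Schlafen family, Xaf1, a binding partner of an apoptosis inhibitor, and Ifi44 reached 368, 311 and 366 CPM, all in cluster 12. Rtp4, a chaperone of membrane receptors, reached 615 CPM in cluster 8, Ddx60, a helicase, 164 CPM in cluster 8, and Ifi204, a DNA sensor, 228 CPM in cluster 12.

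The remaining 3 members encode membrane-associated proteins. Ifitm3, which blocks fusion of viruses in endosomes, was among the 3 highest members in 32 of the 36 labelled-WT classes, from 10.9 CPM in spleen natural killer cells to 5320 CPM in cluster 12, with 4017 CPM in spleen monocytes. Bst2, which tethers budding virions, was among the 3 highest in 23 classes and ran from 4.31 CPM in marrow neutrophils to 1892 CPM in cluster 12, with 907 CPM in the carcinoma class. The labelled-KO marrow library alone had enough plasmacytoid dendritic cells, 77 cells, and Bst2 was at 6540 CPM there. Ifi27l2a, a small mitochondrial or nuclear envelope protein, was among the 3 highest in 16 classes and held 2592 CPM in cluster 12 and 1699 CPM in spleen monocytes. The other members found among the 3 highest of a class were Isg15 in 10 classes, Samd9l in 8, Irf7, Rsad2 and Trim30a in 4 each, Isg20 in 3, Ddx58 in 2, and Irf9 and Stat2 in 1 each.

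Whether a class total came from many cells or a few was read in cells thinned to 1000 UMIs each by a single random draw, leaving out shallower cells. A cell was counted as having a high score where it held at least 3 UMIs from at least 3 core members. In the libraries labelled WT the share with a high score was 94.2% (exact 95% interval 90.7 to 96.7) in tumor cluster 12, 79.8% in cluster 8, 50.6% (46.8 to 54.3) in tumor neutrophils, 45.8% (43.7 to 47.9) in spleen neutrophils and 14.4% (9.43 to 20.6) in marrow neutrophils. It was 35.0% in spleen monocytes against 2.67% (1.53 to 4.29) in marrow monocytes. At the low end, 4 of 1490 granulocyte-monocyte progenitors (0.268%), 0 of 77 plasma cells and 0 of 141 megakaryocytes had a high score. Where a count of 0 is taken to allow up to 3 counts, shares of up to 3.90% of plasma cells and 2.13% of megakaryocytes are allowed. Another random draw of the same plasma cells gave 2 of 77 with a high score (2.6%). Other classes lay between, with 50.4% in tumor cluster 11, 31.2% in cluster 6, 27.7% in tumor T cells and 19.6% in tumor macrophages. High-score cells thus made up most of clusters 8 and 12 and a small share of most marrow classes.

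The spread between cells was read as variance over mean, a ratio that rises with the mean count. It therefore does not by itself tell an even low level from a rare response. Mean core UMIs per thinned cell were 0.126 to 0.271 in the labelled-KO clusters of granulocyte-monocyte progenitors and 6.98 and 11.5 in those of tumor neutrophils. Core UMIs per thinned cell had a variance over mean of 13.8 in labelled-KO and 16.7 in labelled-WT tumor neutrophils and of 8.84 and 7.54 in labelled-KO and labelled-WT spleen neutrophils, with single cells of up to 124 core UMIs of 1000. The ratio was 1.27 in labelled-KO and 1.14 in labelled-WT granulocyte-monocyte progenitors, near 1, where a low mean alone can place it. Spleen T cells stood between, at 2.54 and 2.28 in the same order of labels. Of these, 47.0% of labelled-KO and 49.1% of labelled-WT cells had 0 core UMIs, but a few cells held up to 37 and 36 core UMIs. The top 5% of T cells carried 28.8% of the core UMIs in the labelled-KO and 26.7% in the labelled-WT library. In tumor T cells the ratio was 7.15 in the labelled-KO and 6.80 in the labelled-WT library, and 24.9% and 27.7% had a high score, with overlapping intervals.

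**Figure D2:**
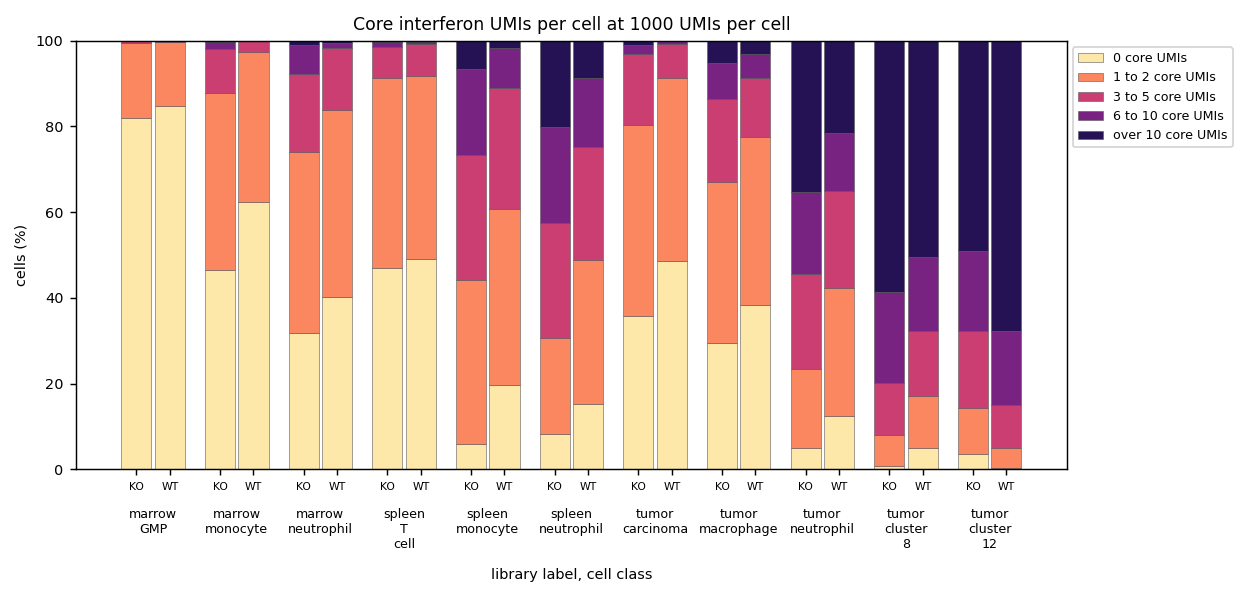
Share of cells (%) in 5 ranges of core UMIs per cell after thinning each cell to 1000 UMIs, as stacked bars for 11 classes or clusters in the libraries labelled Cysltr1 KO and WT. Granulocyte-monocyte progenitors (GMP) pile up at 0 core UMIs, where 81.9% of labelled-KO and 84.8% of labelled-WT cells lie, whereas most cells of tumor clusters 8 and 12 hold at least 6.

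For the comparison of genotypes, members were set against each other in the 26 classes that held 100 cells or more in each library. A member counted as measured with at least 30 UMIs over both. It was called where its CPM plus 1 differed by at least 1.5-fold and its exact Poisson intervals were apart. Ratios are log2 of (CPM plus 1) in the labelled-KO over the labelled-WT library, and the share of all genes called by the same rule is given beside the members' count in each class. Members were called higher in the labelled-KO library most often in spleen monocytes, the carcinoma class, spleen neutrophils, marrow monocytes, Ptprc-low tumor cells and marrow immature neutrophils. Lower calls were few, in tumor clusters 8, 11 and 12 and spleen T cells. The median ratio of all genes in a class lay between -0.11 and 0.10.

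**Figure D3:**
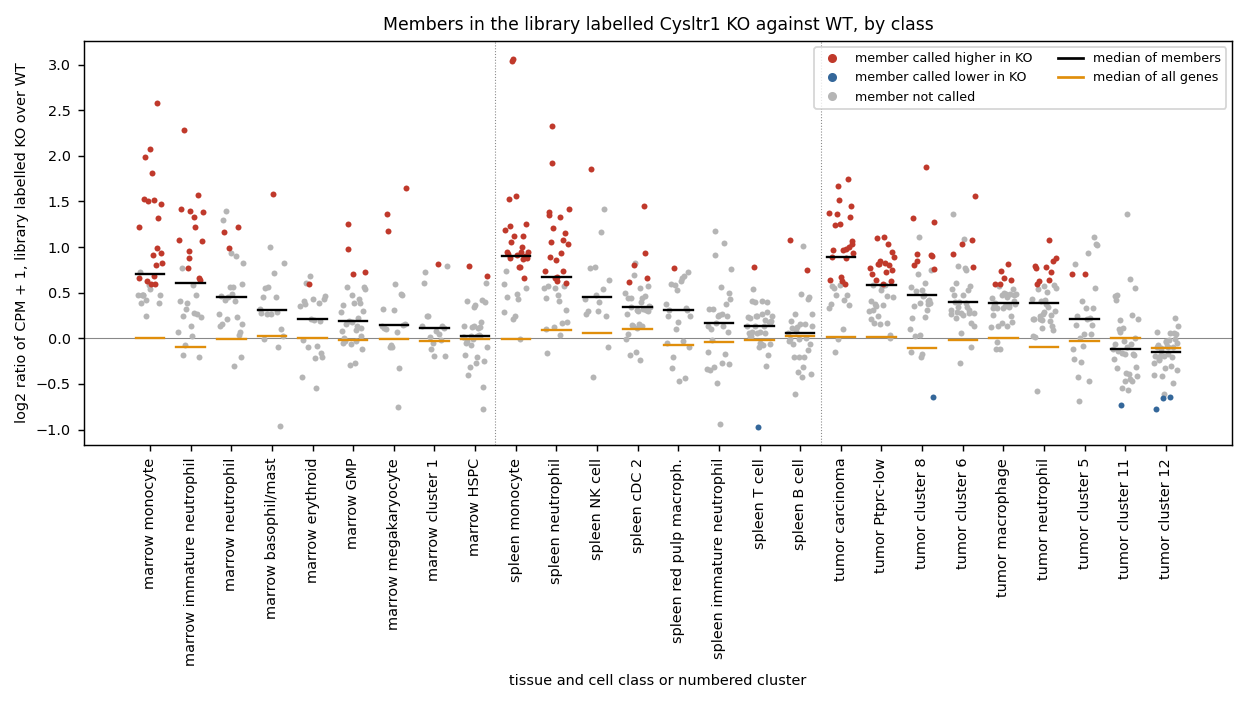
Log2 ratio of CPM plus 1, labelled Cysltr1 KO over labelled WT, of each measured member (points) in each compared class, with members called higher in red, called lower in blue and not called in grey, and bars for the median of the members (black) and of all genes (orange). In spleen monocytes and carcinoma cells most points lie above 0, around medians of 0.90 and 0.89, while in cluster 12 they lie around -0.15.

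In spleen neutrophils, 20 of 34 measured members were called higher in the labelled-KO library, against 5.87% of all genes, and 0 were called lower, against 3.11%. The median ratio of the members was 0.67, in 1103 labelled-KO and 2366 labelled-WT cells of similar depth (median 2348 and 2218.5 UMIs). Isg15 held 1232 CPM (1192 to 1273) in labelled-KO and 677 CPM (657 to 698) in labelled-WT neutrophils, a log2 ratio of 0.86. Effectors gave 12 of the 20 calls. Ifit3 held 75.1 CPM (65.4 to 85.8) in labelled-KO and 14.1 CPM (11.3 to 17.4) in labelled-WT cells, the largest ratio at 2.33. Ifit2 followed with 50.8 CPM in labelled-KO and 12.7 CPM in labelled-WT cells, and Ifit3b and Ifit1 had ratios of 1.21 and 1.06. All 4 genes of the Ifit cluster were thus higher, within the uncertainty between Ifit3 and Ifit3b. The nucleic acid sensor Zbp1 held 139 CPM in labelled-KO and 51.4 CPM in labelled-WT cells, and the Isg15 ligase Herc6 held 88.3 and 34.0 CPM in that order.

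Other abundant members of spleen neutrophils were called as well. Ifi27l2a held 2217 CPM (2163 to 2272) in labelled-KO and 849.7 CPM (827 to 873) in labelled-WT cells. Rtp4 held 855 CPM in labelled-KO and 513 CPM in labelled-WT cells, Irf7 449 and 284 CPM, Rsad2 354 and 167 CPM, Slfn5 235 and 105 CPM and Oasl2 171 and 67.7 CPM, all in the same order of labels. Not all antiviral genes differed: Oasl1 was at 326 CPM in labelled-KO and 317 CPM in labelled-WT cells, and Ifitm3 at 2467 and 2264 CPM. Samd9l and Trim30a, at ratios of 0.57 and 0.31, were not called. Drawing cells so that both libraries had the same spread of UMIs per cell left 18 of 34 members called higher, against 5.32% of all genes. The makeup still differed in that draw. Spleen cluster 4 made up 42.6% of labelled-KO and 31.9% of labelled-WT cells drawn. Spleen cluster 12, with 24 labelled-KO and 234 labelled-WT cells in the class, made up 2% and 6% of those drawn. The share of neutrophils with a high score was 63.9% (60.9 to 66.8) in the labelled-KO and 45.8% (43.7 to 47.9) in the labelled-WT library. Without thinning, a high score was found in 85.8% of labelled-KO and 73.0% of labelled-WT neutrophils. Within single clusters, an alternative chosen after seeing the data, 26 of 34 members were called higher in cluster 4, against 3.37% of all genes, and 12 of 34 in cluster 3, against 4.01%. Marker genes of immature neutrophils moved with the class: their summed level was 2705 CPM in labelled-KO and 7798 CPM in labelled-WT neutrophils, with 5 of 7 called lower. Their part in the result was not tested.

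In spleen monocytes, 123 labelled-KO and 119 labelled-WT cells at median depths of 8210 and 8051 UMIs, 23 of 33 measured members were called higher in the labelled-KO library, against 5.06% of all genes, and 0 lower, against 4.54%. The median ratio was 0.90. Of the transducers and regulators, 8 of 9 were called. Isg15 held 255 CPM (225 to 288) in labelled-KO and 86.0 CPM (69.7 to 105) in labelled-WT monocytes, Irf7 479 CPM (438 to 523) in labelled-KO and 220.4 CPM (194 to 249.8) in labelled-WT monocytes, and Usp18 54.5 and 22.4 CPM in that order. Ifit3 and Ifit2 again had the largest ratios, 3.06 and 3.04. Ifit3 rested on 39 UMIs (37.3 CPM) in labelled-KO and 4 UMIs (3.58 CPM) in labelled-WT monocytes, and Ifit2 on 44.0 CPM against 4.48 CPM. Both fold values are therefore loosely bounded, while the intervals of the levels are apart.

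The DNA sensor Ifi204 was at 111 CPM in labelled-KO and 37.6 CPM in labelled-WT spleen monocytes, and of the 17 classes where it was measured no other had a call for it. Ifi44 held 232 CPM in labelled-KO and 98.6 CPM in labelled-WT monocytes, Ddx58 85.1 and 36.7 CPM, Zbp1 228 and 117 CPM and Slfn5 305 and 193 CPM, each in the same order. Ifi27l2a held 3132 CPM in labelled-KO and 1699 CPM in labelled-WT monocytes. Ifitm3, at 4649 CPM in labelled-KO and 4017 CPM in labelled-WT cells, Bst2 at 253 and 207 CPM and Trim30a at 205 and 139.8 CPM were not called. A high score was found in 53.3% (44.0 to 62.5) of labelled-KO and 35.0% (26.5 to 44.4) of labelled-WT monocytes. Drawing cells to equal UMIs left 12 of 32 members called higher, against 3.93% of all genes. Thinning to 1000 UMIs left 12 members measured, of which 1 was called, against 2.17%, at a median ratio of 0.67. Neutrophil markers summed to 1083 CPM in labelled-KO and 8380 CPM in labelled-WT monocytes, with 6 of 8 called lower. Their part in the result was not tested. Core members summed to 3871 CPM in neutrophils and 1945 CPM in monocytes of the labelled-WT spleen.

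Other spleen classes differed less. In conventional dendritic cells of type 2, 5 of 34 members were called higher, against 3.34% of all genes, and 0 lower, against 1.14%. They were Rsad2 (17.1 CPM in labelled-KO, 5.61 CPM in labelled-WT cells), Samd9l (75.2 and 39.0 CPM), Ifit2 (28.9 and 16.2 CPM), Stat2 (63.0 and 39.6 CPM) and Herc6 (55.7 and 35.9 CPM), all in that order. Ifi27l2a and Ifitm3, above 200 CPM there, had ratios of 0.34 and -0.15 and were not called. In B cells 2 of 31 members were called higher, against 1.92% of all genes, namely Ddx60 at 9.48 CPM in labelled-KO and 3.96 CPM in labelled-WT cells and Rtp4 at 17.1 and 9.79 CPM. None was lower, against 1.94%, and the median ratio was 0.06. Ifi27l2a at a ratio of 0.27 was not called. T cells, with 3875 labelled-KO and 3086 labelled-WT cells the largest class, had 1 of 35 members higher, against 1.16%, and 1 lower, against 2.43%. Ifi44 held 4.70 CPM in labelled-KO and 2.32 CPM in labelled-WT T cells, and Ifitm3 held 10.9 CPM (9.38 to 12.6) in labelled-KO and 22.3 CPM (19.5 to 25.4) in labelled-WT T cells.

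Neutrophil markers in spleen T cells summed to 183 CPM in the labelled-KO and 762 CPM in the labelled-WT library, in the same direction as Ifitm3. Their part in the Ifitm3 result was not tested. Ifi27l2a, at 742 CPM in labelled-KO and 509 CPM in labelled-WT T cells, fell short of the 1.5-fold limit. Natural killer cells and red pulp macrophages had 1 call each, of 16 and 23 members measured and against 1.26% and 2.39% of all genes, and both calls were Ifi27l2a. It held 82.0 CPM in labelled-KO and 21.9 CPM in labelled-WT natural killer cells, and 660.2 and 387 CPM in red pulp macrophages. Immature neutrophils of spleen had 0 of 29 members called higher, against 0.934% of all genes, with 112 labelled-KO and 482 labelled-WT cells.

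Among the tumor classes as compared, with Ptprc-low cells as 1 pool, the carcinoma class showed the widest difference. It was named from keratins and Epcam, and 22 of 34 members were called higher in the labelled-KO library, against 2.02% of all genes, and 0 lower, against 1.17%. The median ratio was 0.89 in 324 labelled-KO and 150 labelled-WT cells, and all 22 calls were core members. Rsad2 held 60.1 CPM (54.9 to 65.7) in labelled-KO and 17.2 CPM (13 to 22.4) in labelled-WT carcinoma cells. Irf7 held 86.9 CPM (80.6 to 93.5) in labelled-KO and 36.0 CPM (29.7 to 43.2) in labelled-WT cells, and Stat2 24.4 and 9.08 CPM in that order. Ifit3 was at 19.1 CPM in labelled-KO and 5.32 CPM in labelled-WT cells, Ifit1 at 26.4 and 9.71 CPM, Trim30a at 42.7 and 15 CPM and Cmpk2 at 19.3 and 6.89 CPM. Ifit3b had 30 UMIs in the labelled-KO and 2 in the labelled-WT library, a ratio of 5.86 in CPM with a counting interval of 1.49 to 50.6.

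Isg15 held 369 CPM (356 to 382) in labelled-KO and 238 CPM (222 to 256) in labelled-WT carcinoma cells. Of the members that are high in resting cells none was called. Bst2 held 1141 CPM in labelled-KO and 907 CPM in labelled-WT cells, and Ifi27l2a had a ratio of -0.15. Ifitm3 held 1904 and 1269 CPM in the same order of labels, just under the 1.5-fold limit at a ratio of 0.58. A high score was found in 17.0% (13.1 to 21.5) of labelled-KO and 7.33% (3.72 to 12.7) of labelled-WT carcinoma cells. Drawing cells to equal UMIs left 18 of 31 members called at a median ratio of 0.86, against 2.14% of all genes. Thinning to 1000 UMIs left 5 members measured, of which 2 were called, against 0.889%, and the median ratio of those 5 was 0.24. S100a8, a neutrophil transcript, can show free RNA from neutrophils but not from cells with little S100a8. It stood in carcinoma cells at 0.284% of its neutrophil level in the labelled-KO and 0.147% in the labelled-WT library. Isg15 stood there at 10.5% and 10.1% of its neutrophil level in the same order of labels. The part of free RNA in the carcinoma result was not tested.

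Ptprc-low tumor cells as a pool gave a similar picture at smaller ratios. There 17 of 36 members were called higher, against 1.76% of all genes, and 0 lower, against 0.768%, with a median ratio of 0.58. Rsad2 held 40.1 CPM (37.7 to 42.7) in labelled-KO and 19.2 CPM (17.9 to 20.6) in labelled-WT cells, Ifit1 28.0 and 12.5 CPM, Irf7 53.6 and 29.2 CPM, Zbp1 41.7 and 22.1 CPM and Usp18 33.3 and 16.8 CPM, all in the same order of labels. Oas2 at a ratio of 1.11, Oas3 at 0.83 and Ifit3b at 0.82 were below 6 CPM in both libraries. Bst2, Ifitm3 and Isg15, above 200 CPM, had ratios of 0.30, 0.16 and 0.57 and were not called. Dhx58 was called here and in no other of the 21 classes where it was measured. The clusters of the pool were unlike in this: 27 of 34 members were called higher within cluster 9, against 2.32% of all genes, 23 of 35 within cluster 3, against 4.79%, and 19 of 35 within cluster 7, against 2.83%. Within cluster 0 there were 2 of 36, against 1.18%, and within the shallow cluster 13 there were 0 of 5, against 0.909%. Median ratios were 0.98 in cluster 9, 0.91 in cluster 3, 0.63 in cluster 7, 0.25 in cluster 0 and 0.33 in cluster 13. Clusters 9 and 3 thus differed at least as widely as the carcinoma class, whose median was 0.89. The median depth of the pool was 16671 UMIs in the labelled-KO and 10892.5 UMIs in the labelled-WT library.

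Tumor neutrophils, the class with the highest named baseline, had 10 of 36 members called higher, against 1.82% of all genes, and 0 lower, against 2.95%. The median ratio was 0.39, in 1301 labelled-KO and 1318 labelled-WT cells. The largest ratio was that of Oasl2, at 152 CPM (133 to 172) in labelled-KO and 71.3 CPM (58.6 to 86.0) in labelled-WT cells. Zbp1 held 209 CPM in labelled-KO and 113 CPM in labelled-WT cells, Slfn5 228 and 126 CPM, Rtp4 548 and 331 CPM, Parp14 248 and 158 CPM and Herc6 186 and 109 CPM, in that order. Dtx3l, Oas1a and Ifi27l2a were called at ratios of 0.79, 0.78 and 0.60. Of the genes with the highest levels, Isg15 held 3503 CPM (3412 to 3595) in labelled-KO and 2359 CPM (2283 to 2437) in labelled-WT neutrophils, just under the 1.5-fold limit at a ratio of 0.57. Rsad2 held 1226 and 1024 CPM in that order. Bst2, Ifit1, Ifitm3, Irf7, Isg20, Oasl1, Samd9l and Trim30a, also above 200 CPM, had ratios of 0.14 to 0.58 and were not called. The share of cells with a high score was 69.3% (66.0 to 72.5) in the labelled-KO and 50.6% (46.8 to 54.3) in the labelled-WT library, leaving out 499 labelled-KO and 598 labelled-WT cells under 1000 UMIs. It was 68.0% in labelled-KO and 52.8% in labelled-WT cells without thinning.

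Cluster 8, which held 446 labelled-KO and 121 labelled-WT cells, had 9 of 34 members called higher, against 3.21% of all genes, and 1 lower, against 3.11%. Oasl2 held 336 CPM (294 to 382) in labelled-KO and 90.3 CPM (51.6 to 147) in labelled-WT cells, and Zbp1 453 and 186 CPM in that order. Dtx3l, Ifit2, Slfn5, Trim30a, Ifit1, Herc6 and Xaf1 were called at ratios of 1.32 to 0.76, with Ifit1 at 914 CPM in labelled-KO and 508 CPM in labelled-WT cells. Usp18, the brake on the receptor, went the other way, at 209.7 CPM (177 to 247) in labelled-KO and 327 CPM (249 to 423) in labelled-WT cells. Isg15, with 5578 CPM in labelled-KO and 3866 CPM in labelled-WT cells, had a ratio of 0.53. The other members above 200 CPM, Rsad2, Ifitm3, Bst2, Cmpk2, Ifi27l2a, Irf7, Isg20, Oasl1, Parp14, Rtp4 and Samd9l, had ratios between -0.17 and 0.42 and were not called.

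Cluster 6, of shallow cells with a median of 1068 UMIs in the labelled-KO and 920 UMIs in the labelled-WT library, had 5 of 35 members called higher, against 1.39% of all genes, and 0 lower, against 1.34%. These were Zbp1 (92.4 CPM in labelled-KO, 30.7 CPM in labelled-WT cells), Stat2 (193 and 90.8 CPM), Irf9 (84.5 and 40.9 CPM), Ddx60 (127 and 66.5 CPM) and Trim30a (158 and 92.0 CPM). Bst2, Ifi27l2a, Ifih1, Ifitm3, Isg15, Oasl1, Parp14, Rsad2 and Samd9l, above 200 CPM, had ratios of 0.17 to 0.53 and were not called. Tumor macrophages had 6 of 36 members called higher, against 1.78% of all genes, and 0 lower, against 1.95%, at a median ratio of 0.39. Isg15 held 504 CPM (488 to 521) in labelled-KO and 319.8 CPM (307 to 333) in labelled-WT macrophages, and Oasl2 53.8 and 30.4 CPM in that order. Rtp4, Ifit3b, Dtx3l and Ifit2 were called at ratios of 0.64, 0.74, 0.60 and 0.59, while Bst2, Ifi27l2a, Ifitm3, Irf7 and Rsad2, above 200 CPM, had ratios of 0.12 to 0.49. No call was left at a mitochondrial limit of 5%, in cells gated one by one or at a 2-fold limit, whereas 12 of 32 members were called higher within cluster 16, against 1.44% of all genes. In cluster 5, of cells with 647 and 639 median UMIs in the labelled-KO and labelled-WT libraries, Bst2 (684 CPM in labelled-KO, 421 CPM in labelled-WT cells) and Isg15 (338 and 208 CPM) were called higher of 26 measured, against 1.91% of all genes.

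In tumor clusters 12 and 11 the median ratio of the members lay below 0. Cluster 12, with 112 labelled-KO and 260 labelled-WT cells, had 0 of 36 members called higher, against 1.88% of all genes, and 3 lower, against 3.16%, at a median ratio of -0.15 where the median of all genes was -0.11. Ifit3 held 259.5 CPM (221 to 303) in labelled-KO and 407 CPM (372 to 443) in labelled-WT cells, Oasl1 376 CPM (329.9 to 428) in labelled-KO and 585 CPM (544 to 629) in labelled-WT cells, and Ddx60 70.5 CPM in labelled-KO and 122 CPM in labelled-WT cells. Rsad2, at 2030 CPM in labelled-KO and 2844 CPM in labelled-WT cells, had a ratio of -0.49 and was not called. Of the other 19 members above 200 CPM, ratios lay between -0.41 for Ifit2 and 0.14 for Zbp1, with Isg15 at -0.03, Ifitm3 at -0.19, Irf7 at -0.32, Usp18 at -0.35, Bst2 at -0.40, Cmpk2 at -0.27 and Parp14 at -0.30. Ifi204, Ifi27l2a, Ifi44, Ifit1, Isg20, Rtp4, Slfn5 and Xaf1 lay between -0.24 and -0.01, and Oasl2 and Trim30a at 0.06 and 0.05. A high score was found in 83.0% (74.8 to 89.5) of labelled-KO and 94.2% (90.7 to 96.7) of labelled-WT cells. Markers of neutrophils summed to 4127 CPM in labelled-KO and 9305 CPM in labelled-WT cells of the cluster, and those of macrophages to 3840 and 6948 CPM in that order, and their part in the result was not tested.

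Cluster 11 had 0 of 35 members called higher, against 1.81% of all genes, and 1 lower, against 1.7%. This was Ifit1, at 100 CPM (85.8 to 116) in labelled-KO and 166 CPM (133 to 204) in labelled-WT cells. Bst2, Ifi27l2a, Ifitm3, Irf7, Isg15, Oasl1, Rsad2, Slfn5 and Zbp1, above 200 CPM, had ratios between -0.47 and 0.21. The share with a high score was 59.7% in the labelled-KO and 50.4% in the labelled-WT library, with overlapping intervals.

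**Figure D4:**
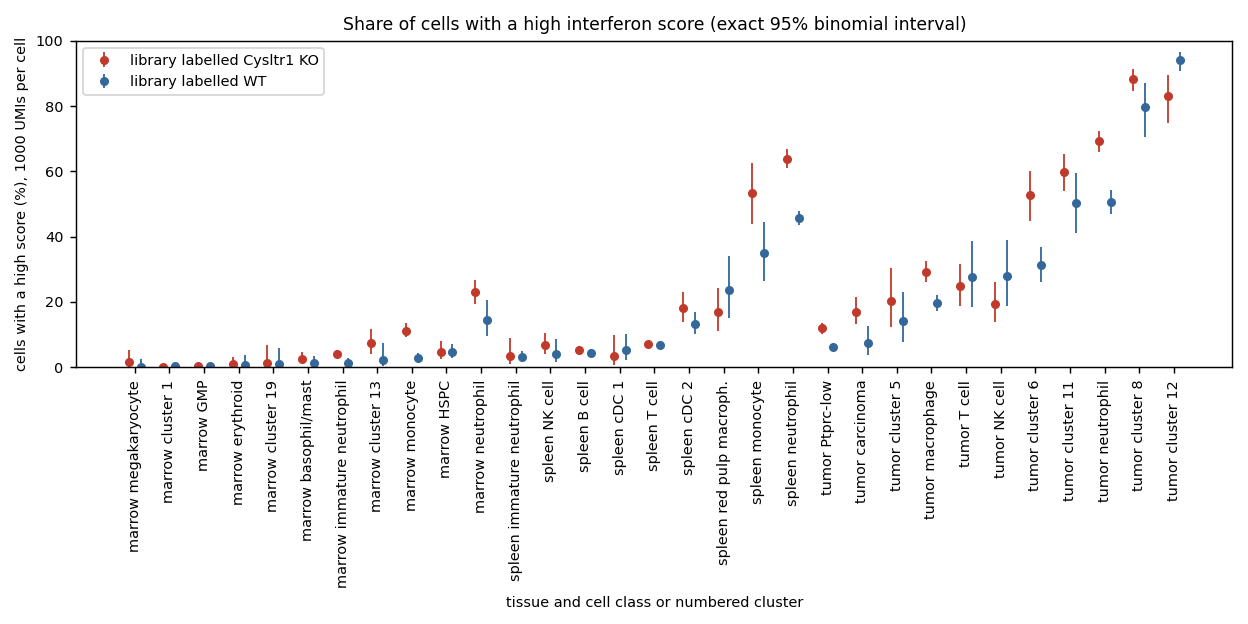
Share of cells with a high interferon score (at least 3 UMIs of at least 3 core members) after thinning to 1000 UMIs, in percent with exact 95% binomial intervals, for the libraries labelled Cysltr1 KO and WT. Spleen neutrophils stand at 63.9% labelled KO and 45.8% labelled WT, tumor neutrophils at 69.3% and 50.6%, and cluster 12 lies the other way at 83.0% and 94.2%.

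Marrow classes differed in depth between the libraries, and the result there depended on how depth was matched. In monocytes, 20 of 32 measured members were called higher in the labelled-KO library, against 2.19% of all genes, and 0 lower, against 1.26%. The median ratio was 0.71, and all 32 ratios were above 0. The median depth was 7110 UMIs in 906 labelled-KO and 16483 UMIs in 601 labelled-WT cells. Rtp4 held 17.2 CPM (14.2 to 20.6) in labelled-KO and 2.05 CPM (1.27 to 3.13) in labelled-WT monocytes, Isg15 37.6 CPM (33.1 to 42.5) in labelled-KO and 8.18 CPM (6.53 to 10.1) in labelled-WT monocytes, and Ifi44 29.7 and 6.72 CPM in that order. Levels of the core were low in both libraries compared with spleen. Irf7 held 49.2 CPM in labelled-KO and 16.8 CPM in labelled-WT monocytes, Usp18 18.2 and 5.94 CPM, Oas2 6.26 and 1.07 CPM, Oasl2 4.95 and 1.07 CPM, Ifi27l2a 1027 and 354 CPM and Ifitm3 2812 and 1817 CPM, each in that order.

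Thinning every marrow monocyte to 1000 UMIs gave 11 of 21 members called higher, against 1.55% of all genes, at a median ratio of 0.96, and a high score in 11.1% (9.14 to 13.4) of labelled-KO and 2.67% (1.53 to 4.29) of labelled-WT cells. Without thinning the shares ran the other way, at 70.9% in the labelled-KO and 81.9% in the labelled-WT library, whose cells are deeper. Drawing 277 cells from each library with equal UMIs per cell gave 2 members higher and 2 lower of 27, against 3.64% and 3.74% of all genes, at a median ratio of -0.08. That draw also changed which cells were compared: cluster 6, 1 of the 3 monocyte clusters, made up 46.7% of labelled-KO and 30.3% of labelled-WT monocytes but 25.6% of the labelled-KO and 53.8% of the labelled-WT cells drawn. Cluster 6 had the shallowest cells of the 3, at 5091 UMIs in the labelled-KO and 11159.5 UMIs in the labelled-WT library. Within single clusters, 15 of 31 members were called higher in cluster 6, against 1.76% of all genes, 9 of 26 in cluster 7, against 1.26%, and 2 of 18 in cluster 14, against 1.03%, and 0 were lower in each. Depth, cell state and genotype label thus cannot be told apart in marrow monocytes. Neutrophil markers summed to 2401 CPM in labelled-KO and 5529 CPM in labelled-WT monocytes, with 6 of 8 lower, and their part was not tested.

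**Figure D5:**
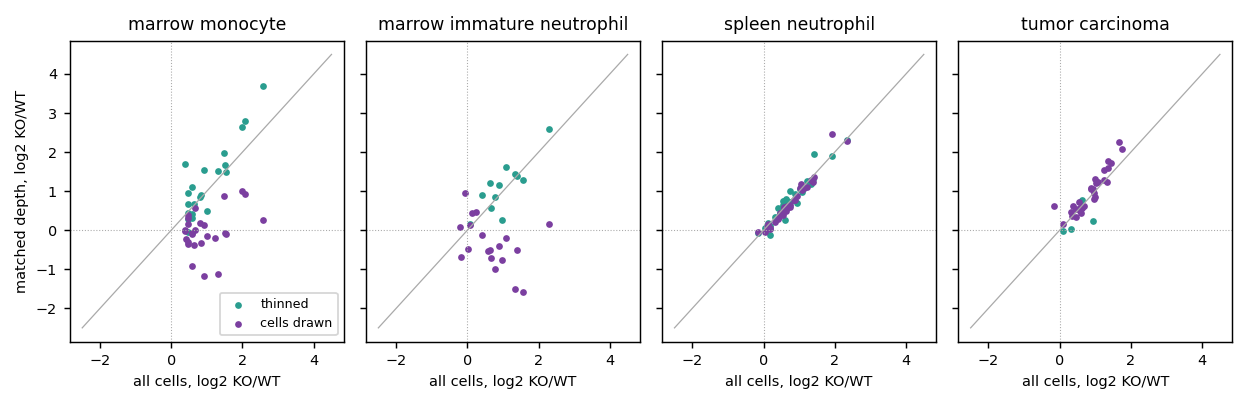
Log2 ratio of each measured member, labelled Cysltr1 KO over labelled WT, in all cells (x axis) and at matched depth (y axis), either thinned to 1000 UMIs or drawn to equal UMIs, for 4 classes, with the line of equal values in grey. Drawn points of nearly all members in spleen neutrophils and carcinoma cells stay above 0, with medians of 0.60 and 0.86, whereas those of marrow monocytes and immature neutrophils move to medians of -0.08 and -0.48.

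In marrow immature neutrophils, 14 of 30 members were called higher, against 3.47% of all genes, and 0 lower, against 2.03%, at a median ratio of 0.61. The median depth was 4921 UMIs in the labelled-KO and 12794 UMIs in the labelled-WT library. Ifi27l2a held 73.4 CPM (67.1 to 80.1) in labelled-KO and 14.4 CPM (11.5 to 17.7) in labelled-WT cells, Isg15 31.7 and 11.4 CPM, Rtp4 23.3 and 7.18 CPM and Oas3 21.2 and 7.85 CPM, each in that order. Ddx60, Zbp1, Parp14 and Cmpk2 were called at ratios of 1.42, 1.38, 1.22 and 1.08, and Ifitm3 held 1081 CPM in labelled-KO and 635 CPM in labelled-WT cells. Thinning left 12 members measured, of which 3 were called higher, against 3% of all genes. Their median ratio was 1.18, with Ifi27l2a at 2.58, Cmpk2 at 1.63, Oas3 at 1.45, Isg15 at 1.39 and Rtp4 at 1.28. In cells drawn to equal UMIs 0 were higher, against 4.29% of all genes, and 4 of 19 lower, against 5.55%, at a median ratio of -0.48. Cluster 2 made up 55.2% of labelled-KO and 31.0% of labelled-WT cells of the class but 26.7% and 56.1% of those drawn. Within single clusters, members called higher were 3 of 22 in cluster 2, against 1.08% of all genes, 0 of 16 in cluster 8, against 0.96%, and 1 of 12 in cluster 11, against 0.44%. Markers of mature neutrophils summed to 231324 CPM in labelled-KO and 191814 CPM in labelled-WT cells, with 4 of 8 called higher, and their part was not tested.

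Mature marrow neutrophils had 3 of 26 members called higher, against 1.31% of all genes, and 0 lower, against 3%. Rtp4 held 303 CPM (273 to 336) in labelled-KO and 129 CPM (104 to 159) in labelled-WT cells, Ifi27l2a 832 and 372 CPM and Irf9 63.7 and 31.6 CPM in that order. Isg15, at 248 CPM in labelled-KO and 168 CPM in labelled-WT cells, and Ifitm3, at 2765 and 2398 CPM, were not called. The median ratio of 0.45 became -0.29 in the 89 cells of each library drawn to equal UMIs. A high score was found in 22.9% (19.5 to 26.6) of labelled-KO and 14.4% (9.43 to 20.6) of labelled-WT cells, with overlapping intervals.

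Progenitors of marrow had few members called, though a larger share than of all genes. Their median depth was 10896.5 UMIs in labelled-KO and 19070 UMIs in labelled-WT granulocyte-monocyte progenitors. It was 5119 and 7627 UMIs in stem and multipotent progenitors in that order. Calls at matched depth are not given here for these classes. Granulocyte-monocyte progenitors had 4 of 31 members called higher, against 0.669% of all genes, and 0 lower, against 0.782%, and all 4 were at low levels: Ifi27l2a (14.2 CPM in labelled-KO, 5.39 CPM in labelled-WT cells), Ifi44 (4.61 and 1.85 CPM), Zbp1 (2.85 and 1.31 CPM) and Isg15 (10.1 and 5.76 CPM). The abundant Ifitm3 had a ratio of -0.06. Stem and multipotent progenitors had 2 of 33 called higher, against 0.501%, and 0 lower, against 1.13%, at a median ratio of 0.02. These were Ifi27l2a, at 34.0 CPM in labelled-KO and 19.3 CPM in labelled-WT cells, and Xaf1 at 39.0 and 23.9 CPM, while Ifitm3 held 949 and 953 CPM. A high score was found in 4.73% of labelled-KO and 4.63% of labelled-WT cells of this class, and in 2.18% and 2.86% in another random draw. The remaining marrow classes had few calls, and 0 lower: Ifi27l2a, Ifih1 and Xaf1 of 19 members in megakaryocytes, against 1.94% of all genes, Isg15 of 18 in basophils or mast cells, against 1.41%, Isg20 of 17 in cluster 1, against 0.4%, and Ifitm3 of 21 in erythroid cells, against 0.901%.

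Read by gene, some members were called higher in many of the classes where they were measured and others in hardly any. Ifi27l2a was called higher in 11 of 24 classes, Zbp1 in 10 of 21, Rtp4 in 10 of 24, Isg15 in 9 of 26, Oasl2 in 8 of 14 and Xaf1 in 8 of 26. At the other end, Dhx58 was called in 1 of 21 and Ifi204 in 1 of 17 classes, Bst2 in 1 of 25, Isg20 in 2 of 24, Parp9 in 2 of 25, Oasl1 in 2 of 21, with 1 lower call, and Oas2 in 2 of 16. Classes of a tissue share libraries and free RNA, so these counts are not independent. No count of classes over all genes is given beside them. In marrow cells drawn to equal UMIs, ratios reversed for Ifi27l2a in monocytes (-0.11) and for Rtp4 (-1.57) and Isg15 (-0.50) in immature neutrophils. They stayed positive for Rtp4 (0.26) and Isg15 (0.93) in monocytes and for Ifi27l2a (0.15) in immature neutrophils. The Ifit genes were measured in 11 classes for Ifit3b, 13 for Ifit3, 16 for Ifit1 and 22 for Ifit2, and called higher in 4 or 5, with 1 lower call each for Ifit1 and Ifit3.

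Other genes of the pathway were read beside the members. Ifnb1 had 104 UMIs in labelled-KO and 73 in labelled-WT tumor, and fewer than 5 in each other library, and in tumor macrophages it was called higher at 12.5 CPM in the labelled-KO and 4.75 CPM in the labelled-WT library. The type I receptor chains were called in none of the 26 classes, with Ifnar1 in spleen monocytes at 98.4 CPM in labelled-KO and 73.5 CPM in labelled-WT cells and Ifnar2 at 288 and 289 CPM. Socs1, a brake on both interferon receptors, held 30.6 CPM in labelled-KO and 8.06 CPM in labelled-WT spleen monocytes and 132 and 49.1 CPM in tumor neutrophils. Of a list of 40 other type I response genes, 13 of 27 measured were called higher in spleen neutrophils (5.87% of all genes), 15 of 35 in spleen monocytes (5.06%) with 1 lower (4.54%), 12 of 35 in carcinoma cells (2.02%) and 10 of 37 in marrow monocytes (2.19%) with 1 lower (1.26%). In cluster 12, 1 of 38 was higher, against 1.88% of all genes, and 9 were lower, against 3.16%.

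Genes that answer to interferon gamma were called higher in several of these classes, but not in all. Of 20 such genes, 16 of 16 measured were called higher in spleen monocytes (5.06% of all genes) at a median ratio of 2.62, 12 of 13 in spleen neutrophils (5.87%) at 1.69 and 15 of 16 in carcinoma cells (2.02%) at 1.65, each larger than the median of the type I members in that class. Cxcl9, a chemokine induced by interferon gamma, held 605 CPM in labelled-KO and 0.896 CPM in labelled-WT spleen monocytes, and Cxcl10 held 226 and 3.58 CPM in that order. In the marrow, 4 of 8 measured were higher in monocytes (2.19% of all genes) and 0 of 5 in immature neutrophils (3.47%). Ifng itself had 1616 UMIs in labelled-KO and 761 in labelled-WT spleen, of which T cells held 1221 and 562 and natural killer cells 384 and 194. Per class, Ifng was at 72.7 CPM (68.7 to 76.9) in labelled-KO and 54.4 CPM (50.03 to 59.1) in labelled-WT T cells, under the 1.5-fold limit, and at 312 CPM (281 to 345) in labelled-KO and 354 CPM (306 to 407) in labelled-WT natural killer cells. Tumor held 139 Ifng UMIs in the labelled-KO and 76 in the labelled-WT library, 25 of the latter in macrophages. Tumor natural killer cells, with only 87 labelled-WT cells, held 161 CPM (129 to 199) in labelled-KO and 62.2 CPM (39.4 to 93.3) in labelled-WT cells. Tumor T cells held 93.6 CPM (68.5 to 125) and 113 CPM (75.1 to 163) in that order. In tumor, 12 of 15 gamma genes were called higher in cluster 8 (3.21% of all genes) and 3 of 15 in cluster 12 (1.88%). Since many members answer to both kinds of interferon, which of them acted on the members was not tested.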

How the data were processed

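The values are UMI counts per gene and cell barcode, deposited as whole numbers by the authors for 6 libraries, 1 per tissue and label, each from a pool of 3 mice. Cell Ranger and genome build mm10 are named in the submitters' processing notes, which give version 6.0.0, whereas version 6.1.0 stands in the file headers. The labels name both a 5′ and a 3′ kit, so the counted end of the transcript is not settled. No deposited barcode held fewer than 500 UMIs. The 19 antibody features listed in 3 libraries held 1 to 3 counts in each and were left out, and no column of another series was found.

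The members and gene lists were chosen with earlier results of these data known. Cells were kept from 300 genes and 500 UMIs upward if mitochondrial UMIs were no more than 10%. Doublet candidates were scored against simulated doublets, and the highest 0.8% per 1000 cells (266 to 759 cells per library) were removed. Counts were scaled to 10000 per cell, and each tissue was clustered over both labels from 2000 variable genes, without the members and the other interferon lists, with 30 principal components, 15 neighbors and Leiden resolution 1. A class was eligible for a cluster where at least 3 of its markers were in at least 10% of the cells and 1.5-fold above the median of all clusters. The eligible class with the highest mean log2 fold gave the name, if it had more markers among the cluster's top 10 genes than any other class. A median depth below 0.333 of the sample's was flagged but not used in naming. The strict majority, the joint count of macrophage and red pulp markers and the pool of clusters with Ptprc below 50 CPM were set after seeing the data.

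UMIs were summed per class and library, with exact 95% Poisson intervals, and a pseudocount of 1 CPM was used in log2 ratios. Named in a class were the 8 members with the largest ratio among those called and members at 200 CPM or more in either library. In the baseline the 3 highest members of each class were counted. A count of 0 allows up to 3 counts. Scripts were tested on simulated data. Tools were Python 3.11.15, numpy 2.4.6, scipy 1.17.1, pandas 2.3.3, scanpy 1.11.5, leidenalg 0.10.2, scikit-learn 1.9.0 and matplotlib 3.10.9. The TMM factors of edgeR 4.0.16 were used for an alternative scaling only. The alternatives were depth per cell, pseudocount, filter, scaling, fold limit, doublets, mitochondrial limit, clustering, the score and the motif.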

Additional observations from a re-analysis of the deposited data

Results flagged for a closer look

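In 5 members a call in a tumor cluster went opposite to a call in another tumor class (log2 ratios of CPM plus 1, labelled KO over labelled WT). Ddx60, a helicase, had a ratio of -0.78 in cluster 12 and 0.92 in cluster 6. Ifit1, which binds foreign RNA, had -0.73 in cluster 11 and 1.36 in carcinoma cells. Ifit3, its partner, had -0.65 in cluster 12 and 1.67 in carcinoma cells, and Oasl1 had -0.64 in cluster 12 and 0.60 in carcinoma cells. Usp18, the brake on the receptor, had -0.64 in cluster 8 and 1.07 in carcinoma cells. With 1 library per label, none of these differences was tested.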

How the results depend on the processing

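No paired analysis was possible because each tissue and label had 1 library, and no library could be left out. Of the values of single genes under the alternatives, 1866 kept their side of the call, 206 lost it, 32 gained it and 11 reversed. The counts of members that follow are given without the share of all genes called at the same setting, except where that share stands above. They say how many calls were left and not how the members stood against other genes. At a 2-fold limit, members called higher numbered 10 in marrow monocytes, 9 in marrow immature neutrophils, 11 in spleen neutrophils, 10 in spleen monocytes, 11 in carcinoma cells, 3 in Ptprc-low cells, 1 in tumor neutrophils and 0 in tumor macrophages. Thinned to 1000 UMIs, where fewer UMIs stand behind each gene, they numbered 11 in marrow monocytes, 3 in marrow immature neutrophils, 1 in spleen monocytes, 2 in carcinoma cells and 8 in Ptprc-low cells. In cells drawn to equal UMIs they numbered 2 in marrow monocytes, 0 in marrow immature neutrophils and 12 in spleen monocytes. With cells gated one by one they numbered 10 in marrow monocytes, 1 in marrow immature neutrophils and 0 in tumor macrophages, and at resolution 2 they numbered 4 in marrow immature neutrophils, 15 in spleen monocytes and 2 in tumor macrophages. A mitochondrial limit of 5% left 15 in spleen monocytes and 0 in tumor macrophages, a pseudocount of 5 CPM left 7 in Ptprc-low cells and 3 in tumor macrophages, and keeping doublets left 3 in tumor macrophages. Within single clusters, chosen after seeing the data, they numbered 9 and 2 in marrow monocyte clusters 7 and 14, 3, 0 and 1 in immature neutrophil clusters 2, 8 and 11, 12 in spleen neutrophil cluster 3, 2, 27 and 0 in Ptprc-low clusters 0, 9 and 13, 5 in tumor neutrophil cluster 2 and 12 in macrophage cluster 16. Median ratios reversed in drawn cells, to -0.08 in marrow monocytes, -0.48 in marrow immature neutrophils and -0.29 in marrow neutrophils. So did Ifi27l2a (-0.11), Irf7 (-0.08) and Ifitm3 (-0.37) in marrow monocytes, Rtp4 (-1.57), Isg15 (-0.50), Oas3 (-1.50), Cmpk2 (-0.21) and Ifitm3 (-1.0) in immature neutrophils and Ifi27l2a (-0.42) in marrow neutrophils. With gated cells, Stat2 was at -0.12 in dendritic cells of type 2 and Ifit3b at -0.41 in tumor macrophages. The gap in high-score shares became 24.2 percentage points in spleen monocytes thinned to 2000 UMIs, with intervals that no longer overlapped, and 7.2 points in carcinoma cells with doublets kept, with intervals that did. With 1 mismatch allowed, the motif was in 25 promoters. Where a value above shows no cause, the cause was not tested.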

Other observations

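Over whole libraries, cells with a high score of the core members made up 5.84% (343 of 5877) of labelled-KO and 1.87% (88 of 4709) of labelled-WT marrow cells at 1000 UMIs. They made up 16.1% of labelled-KO and 18.1% of labelled-WT spleen cells, and 38.1% of labelled-KO and 21.4% of labelled-WT tumor cells. Neutrophils were 56.8% of these cells in labelled-KO and 71.5% in labelled-WT spleen. In tumor, neutrophils were 30.3% of labelled-KO and 27.5% of labelled-WT high-score cells, cluster 8 was 19.1% and 5.97%, and cluster 12 was 5.07% and 18.5% in the same order of labels. Whole-library shares follow the makeup of a library as well as the share within each class. Kept neutrophils numbered 608 in labelled-KO and 180 in labelled-WT marrow, and 1103 and 2366 in spleen in that order. Within spleen neutrophils the share with a high score was higher in the labelled-KO library, opposite to the whole spleen. 

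The chemokine Cxcl10 and the feedback inhibitor Socs1, no members, had their largest ratios in cluster 8 (2.23 and 2.05 on the log2 scale) among the 5 tumor clusters compared by number. Cxcl10 held 1487 CPM in labelled-KO and 316 CPM in labelled-WT cells there, and Socs1 495 and 119 CPM.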
